A study of Homo sapiens with 12 samples.

Results

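Transcript levels of 7 imprinted genes (PEG10, SGCE, MEST, PEG3, PLAGL1, NNAT and GRB10) were examined on 12 expression arrays of HCC827 cells and lines related to them. HCC827 is an established human lung adenocarcinoma line with an activating EGFR mutation. They were chosen by their log2 differences in the comparisons of ERC4 with HCC827 parental and of Esh9-1 with HCC827NT, above all those of PEG10, so their values there are given as a description, with no test. They were measured by 14 probe sets that the platform annotation gives to a single member symbol, of 22215 probe sets analysed, and stand for 7 of 11963 genes with a symbol. Another probe set, 220653_at, is annotated to both ZIM2 and PEG3 and was not used.

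The 4 groups had 3 arrays each. ERC4 is a line labelled as erlotinib resistant, erlotinib being an inhibitor of the EGFR kinase, and HCC827 parental cells were its reference; both were grown in RPMI with 5% FBS and antibiotics. Esh9-1 are HCC827 cells that received an EGFR-targeting shRNA by lentivirus, and HCC827NT received a non-target shRNA in the same way; both were grown in the same medium with 5 ug/ml puromycin added. Groups were taken from sample titles and cell type labels, because another label calls all 12 samples resistant to EGFR inhibitors, HCC827 parental included. The labels name 1 resistant line and 1 EGFR shRNA, and do not say whether erlotinib was present at harvest. Where the replicates came from is also not stated, so the errors and p-values below measure only the spread between these arrays, which may be technical.

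Imprinted genes are expressed mainly from the copy inherited from one parent, a state set by DNA methylation laid down in the germ line. PEG10, SGCE, MEST, PEG3, PLAGL1 and NNAT are expressed from the paternal copy in many tissues, while the parental bias of GRB10 depends on tissue and transcript. PEG10, a gene domesticated from a Ty3/Gypsy retrotransposon, and SGCE, which encodes epsilon-sarcoglycan, lie head to head on chromosome 7 and share an imprinted control region. An array reports the sum of both parental copies, so nothing below says which copy was expressed.

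The arrays fall into 2 sets of 6 with separate scaling: array medians lay between 5.67 and 5.75 on the log2 scale in ERC4 and HCC827 parental, and between 7.15 and 7.17 in Esh9-1 and HCC827NT. Each comparison was therefore made within its own set, and levels were not compared between sets. Within a group, pairs of arrays had correlations of at least 0.992 over the probe sets. EGFR (201983_s_at), the target of the shRNA, was lower in Esh9-1 than in HCC827NT (log2 difference -1.30 ± 0.07 SE, limma adjusted p = 9.2e-07), although 1 of its 6 probe sets was called in the other direction. Of 8 epithelial markers measured, 7 were called lower in ERC4 (the largest falls in MUC1, CDH1, EPCAM and KRT19), and 1, NKX2-1, was called higher (log2 difference 0.37, 0.15 and not called with quantile normalization within the set). The summed log2 level of the 8 was 73.4 to 73.8 in ERC4, against 86.4 to 86.6 in HCC827 parental. All 8 were called lower in Esh9-1, with sums of 71.9 to 72.6 in Esh9-1, against 97.9 to 98.4 in HCC827NT. Called in either direction were thus 100% of the 8 in each comparison. By brightest probe sets, 50.9% of all genes were called in ERC4 and 52.3% in Esh9-1. None of these 8 markers was below the array median in both groups of a comparison, whereas all 4 leukocyte markers measured were. Summed over 4 leukocyte markers the log2 level was 17.8 to 18.5 in ERC4, against 18.8 to 19.2 in HCC827 parental, and 21.2 to 21.9 in Esh9-1, against 21.5 to 21.9 in HCC827NT. Of these, CD14 was called lower in ERC4 and higher in Esh9-1, and CD3E was called lower in Esh9-1. The CD14 calls were lost in several settings, at limma adjusted p of up to 0.084 in ERC4 and 0.11 in Esh9-1. The CD3E call was lost likewise, at up to 0.14. The 7 fibroblast and endothelial markers summed to 34.8 to 35.2 in ERC4, against 35.4 to 36.5 in HCC827 parental, and to 43.7 to 44.3 in Esh9-1, against 41.9 to 42.1 in HCC827NT. In ERC4, COL3A1, DCN and COL1A1 of these 7 were called lower and LUM higher. The COL1A1 call was lost without ERC4 replicate 1 (limma adjusted p = 0.059) or ERC4 replicate 2 (0.067). In Esh9-1, LUM was called higher (log2 difference 2.56 ± 0.06, limma adjusted p = 3.7e-09), CDH5 lower (-0.34 ± 0.07, limma adjusted p = 0.0027) and the other 5 were not called. Hybridisation controls added to the sample averaged 9.86 ± 0.06 in ERC4 and 11.34 ± 0.14 in HCC827 parental on the log2 scale (SD, n = 3 each), and 12.25 ± 0.06 in Esh9-1 and 11.70 ± 0.09 in HCC827NT. The 3′ minus 5′ signal of the ACTB control probe sets, a sign of RNA quality, was 0.19 ± 0.04 in ERC4 and 0.22 ± 0.05 in HCC827 parental, and 1.07 ± 0.15 in Esh9-1 and 0.20 ± 0.03 in HCC827NT. The part of these differences in the results below was not tested.

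PEG10 was strongly higher in ERC4 and strongly lower in Esh9-1. PEG10 encodes Gag-like and Gag-Pol-like proteins through a ribosomal frameshift and is needed for placental development in mice. Probe set 212092_at read 10.55, 10.47 and 10.43 (log2) on the ERC4 arrays, against 8.17, 8.18 and 7.98 on the HCC827 parental arrays. Every ERC4 array lay above every HCC827 parental array, and the log2 difference was 2.37 ± 0.09 (SE, n = 3 each), a 5.18-fold higher level. Folds here are on the log2(intensity + 1) scale, and in bulk RNA a change in the number of expressing cells and a change in RNA per cell cannot be told apart. The same probe set read 8.25, 8.36 and 8.34 on the Esh9-1 arrays, against 12.35, 12.21 and 12.04 on the HCC827NT arrays. All Esh9-1 arrays were lower, and the log2 difference was -3.89 ± 0.09 (SE, n = 3 each), a 14.8-fold lower level. Among all probe sets of an array PEG10 stood at percentiles 97.4 to 97.8 in ERC4, against 85.9 to 87.9 in HCC827 parental. It stood at percentiles 64.8 to 66.6 in Esh9-1, against 97.2 to 97.8 in HCC827NT, so the low level in Esh9-1 was still above the array median.

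The other PEG10 probe set, 212094_at, gave the same directions with smaller sizes. Its log2 levels were 9.56, 9.58 and 9.55 in ERC4, against 7.23, 7.46 and 7.52 in HCC827 parental, a difference of 2.16 ± 0.09 (SE) or 4.47-fold. In Esh9-1 they were 8.91, 8.84 and 8.88, against 11.84, 11.46 and 11.63 in HCC827NT, a difference of -2.77 ± 0.09 (SE) or 6.81-fold lower. The groups did not overlap in either comparison. The log2 differences of the 2 probe sets, 212092_at minus 212094_at, were 0.21 apart in ERC4 and -1.12 apart in Esh9-1, so the size of the drop in Esh9-1 depended on the probe set far more than the size of the increase in ERC4. By the size of its log2 difference PEG10 (212092_at) stood at percentile 99.7 of all probe sets in each comparison.

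SGCE moved in the same direction as PEG10 in both comparisons, but by much less. SGCE encodes a membrane glycoprotein of the sarcoglycan family, and its loss on the paternal copy causes myoclonus-dystonia. Its probe set 204688_at read 6.32, 6.10 and 6.04 (log2) in ERC4, against 5.21, 5.66 and 5.33 in HCC827 parental. All ERC4 arrays were higher, by 0.75 ± 0.12 (SE, n = 3 each) on the log2 scale or 1.68-fold, and the mean in HCC827 parental lay under the array median. In Esh9-1 it read 7.34, 7.29 and 7.22, against 8.19, 8.15 and 8.16 in HCC827NT. All Esh9-1 arrays were lower, with a log2 difference of -0.88 ± 0.06 (SE, n = 3 each) or 1.84-fold. By the size of its log2 difference SGCE stood at percentile 89.5 of all probe sets in ERC4 and at 88.9 in Esh9-1.

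PEG10 and SGCE therefore shared their direction without sharing the size of their change. SGCE was the dimmer gene, at percentiles 38.3 to 48.1 of an array in HCC827 parental and 50.7 to 52.2 in Esh9-1. The log2(intensity + 1) scale understates changes of dim genes, and how far this reduced the change of SGCE was not tested. The log2 difference of PEG10 (212092_at) exceeded that of SGCE by 1.62 in ERC4, with a pooled SD between replicates of 0.17. In Esh9-1 the log2 difference of PEG10 minus that of SGCE was -3.00, with a pooled SD of 0.13. With the other PEG10 probe set, 212094_at, the same difference was 1.41 in ERC4 and -1.88 in Esh9-1. With quantile normalization within the set the excess of 212092_at in ERC4 was 1.39. The plot of levels by array shows both patterns: PEG10 and SGCE are the only 2 of the 7 genes whose every probe set was higher in all ERC4 arrays and lower in all Esh9-1 arrays.

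**Figure D1:**
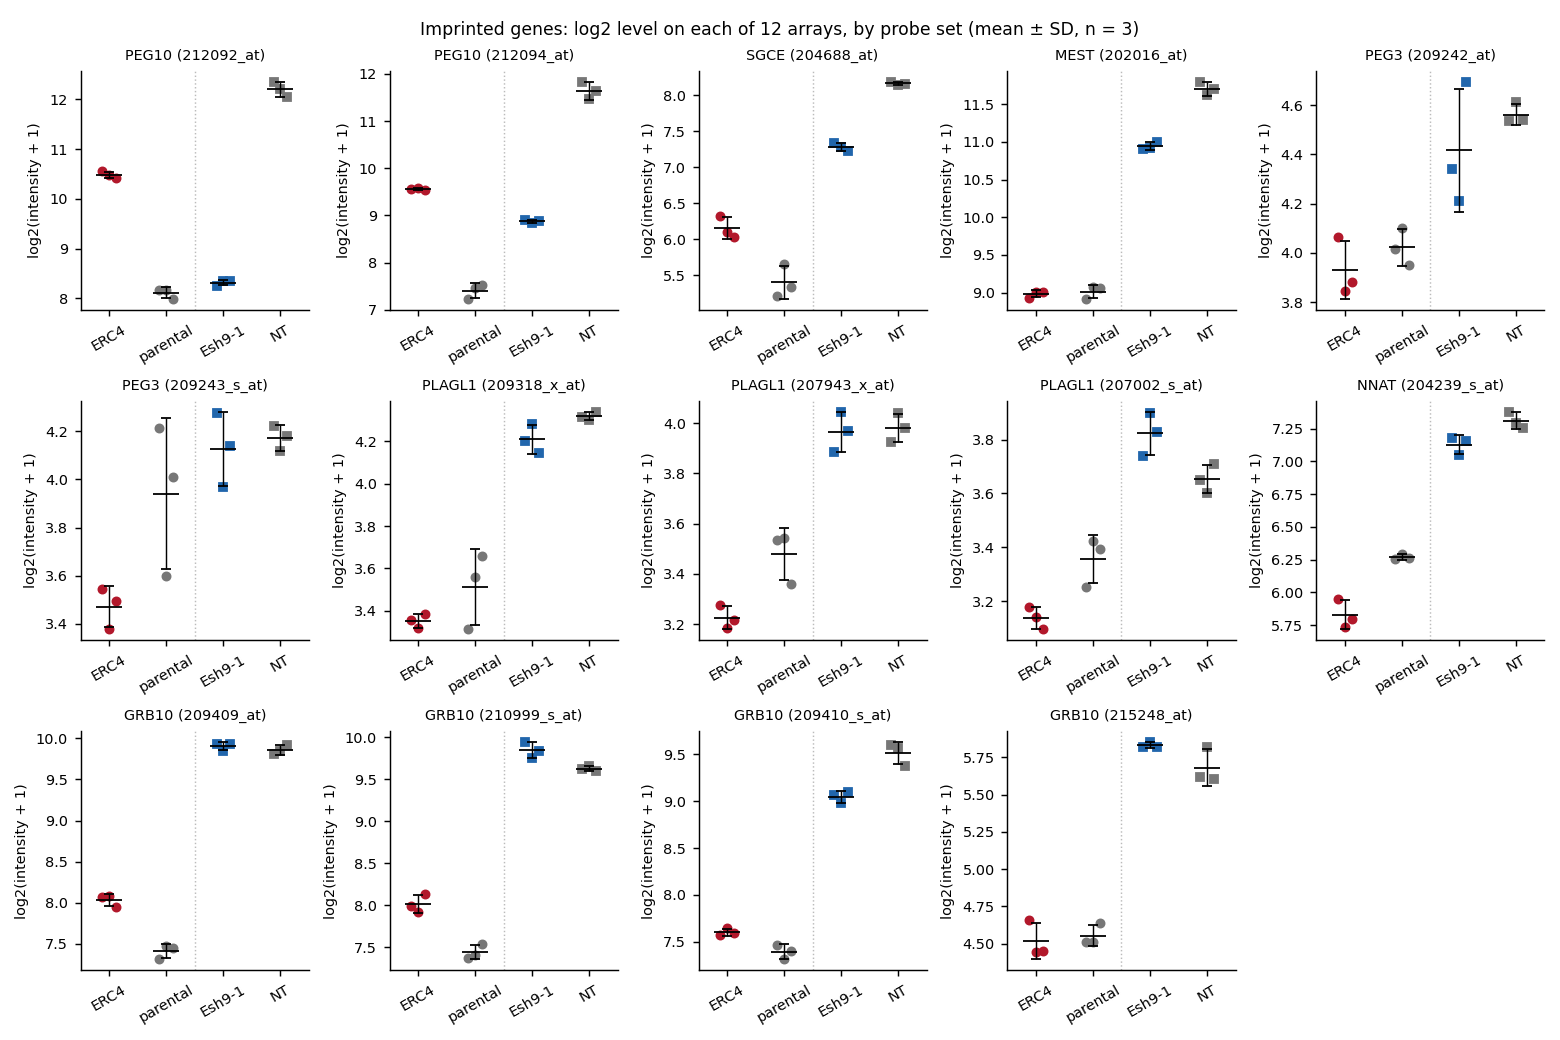
Log2(intensity + 1) of the 14 probe sets of the 7 imprinted genes on each array, 1 panel per probe set with its own vertical scale; points are arrays, bars the mean ± SD (n = 3), and the dotted line separates the 2 sets of arrays, whose levels are not on a common scale. Both PEG10 probe sets and SGCE are higher in ERC4 than in HCC827 parental (labelled parental) and lower in Esh9-1 than in HCC827NT (labelled NT).

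The other 5 imprinted genes did not share this pattern. MEST, which encodes a predicted hydrolase of the endoplasmic reticulum and is expressed in embryonic mesoderm, was bright in all groups and lower in Esh9-1. Its probe set 202016_at read 8.93, 9.01 and 9.01 (log2) in ERC4, against 8.91, 9.07 and 9.06 in HCC827 parental, with overlapping groups and a difference of -0.03 ± 0.08 (SE). That difference was -0.24 with quantile normalization within the set and 0.029 with arrays centred on their median. In Esh9-1 MEST read 10.91, 10.91 and 11.00, against 11.80, 11.62 and 11.71 in HCC827NT. All Esh9-1 arrays were lower, with a log2 difference of -0.77 ± 0.07 (SE, n = 3 each) or 1.70-fold.

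GRB10 encodes an adaptor that binds the insulin and IGF1 receptors and restrains their signalling. Of its 4 probe sets, 209409_at and 210999_s_at were the brightest, and both were higher in all ERC4 arrays. Probe set 209409_at averaged 8.04 ± 0.07 (log2) in ERC4 and 7.41 ± 0.09 in HCC827 parental (SD, n = 3 each), a difference of 0.62 ± 0.08 (SE), and 210999_s_at differed by 0.57 ± 0.09. In Esh9-1 the same probe sets differed from HCC827NT by 0.05 ± 0.06, with overlapping groups, and by 0.22 ± 0.07, with all Esh9-1 arrays higher. The third, 209410_s_at, went the other way in Esh9-1, averaging 9.05 ± 0.06 in Esh9-1 and 9.52 ± 0.12 in HCC827NT, a difference of -0.47 ± 0.08. In ERC4 it was 0.21 ± 0.08 higher, and that difference was 0.005 with quantile normalization within the set. GRB10 thus had no single direction in Esh9-1. The dim probe set 215248_at differed by -0.04 ± 0.09 in ERC4 and by 0.15 ± 0.07 in Esh9-1, with overlapping groups in each.

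NNAT, which encodes neuronatin, a small membrane protein of the endoplasmic reticulum in brain and endocrine cells, lay near the array medians. Its probe set 204239_s_at read 5.95, 5.74 and 5.80 (log2) in ERC4, against 6.25, 6.30 and 6.26 in HCC827 parental. All ERC4 arrays were lower, with a difference of -0.44 ± 0.08 (SE). In Esh9-1 it read 7.18, 7.05 and 7.16, against 7.38, 7.30 and 7.25 in HCC827NT, a difference of -0.18 ± 0.07 with groups that did not overlap.

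PEG3 and PLAGL1, which encode zinc finger transcription factors, were below the array medians in all 4 groups on each of their 5 probe sets. Such dim probe sets say little about transcript levels. The PEG3 probe sets 209242_at and 209243_s_at differed by -0.09 ± 0.09 and -0.47 ± 0.14 (SE) in ERC4 and by -0.15 ± 0.11 and -0.05 ± 0.08 in Esh9-1. Only 209243_s_at in ERC4 had groups that did not overlap, at 3.55, 3.38 and 3.49 (log2) in ERC4, against 4.21, 3.60 and 4.01 in HCC827 parental. PLAGL1 differed by -0.16 ± 0.10 (209318_x_at), -0.25 ± 0.08 (207943_x_at) and -0.22 ± 0.08 (207002_s_at) in ERC4. In Esh9-1 its differences were -0.11 ± 0.06, -0.02 ± 0.07 and 0.17 ± 0.07 in the same order, so PLAGL1 had no single direction there.

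**Figure D2:**
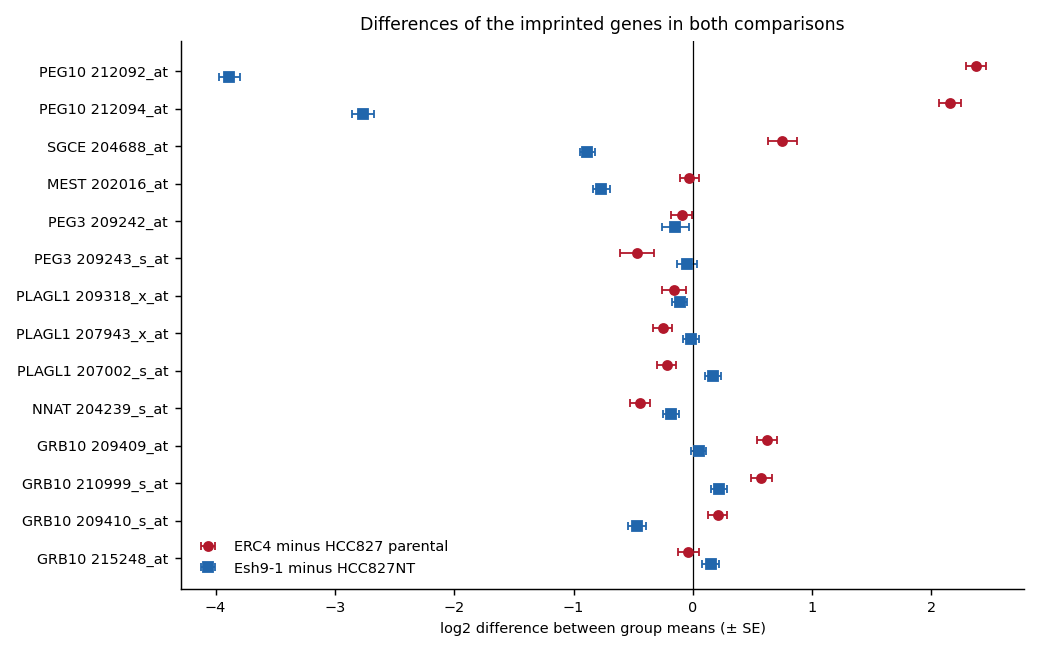
Log2 differences between group means (points, ± SE) of the 14 probe sets of the 7 imprinted genes, with circles for ERC4 minus HCC827 parental and squares for Esh9-1 minus HCC827NT. PEG10 stands far from the others at 2.37 and 2.16 in ERC4 and -3.89 and -2.77 in Esh9-1, SGCE follows at 0.75 and -0.88, and the rest lie between -0.77 and 0.62.

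Over the 14 probe sets, 6 were called higher in ERC4, 4 were called lower and 4 were not called, where called means a limma adjusted p under 0.05 over all probe sets. Across all probe sets 48.5% were called in ERC4, 23.6% as higher and 24.9% as lower, and 58.2% had groups that did not overlap. In Esh9-1, 1 was called higher, 6 were called lower and 7 were not called, against a background of 50.3% called, 24.5% as higher and 25.9% as lower, with 58.8% not overlapping. The median log2 difference of the 14 was -0.03 in ERC4 and -0.13 in Esh9-1, against -0.06 and -0.03 over all probe sets. These values chose the genes, so the counts are given without any reading.

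The genes around PEG10 and SGCE were then followed along chromosome 7. Of the 20 other protein-coding genes that the RefSeq order places between CALCR and TAC1, all 20 were measured, each taken by its brightest probe set. The share of all genes called, by their brightest probe sets, was 50.9% in ERC4 (26% higher, 24.8% lower) and 52.3% in Esh9-1 (26.2% higher, 26.1% lower). Of the 20 neighbours, 5 were called higher in ERC4, 3 lower and 12 not, and 1 was called higher in Esh9-1, 8 lower and 11 not. Called in either direction were thus 40% of the neighbours in ERC4 and 45% in Esh9-1.

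CASD1 and PPP1R9A, the genes next to SGCE and next to PEG10, were both called higher in ERC4 and lower in Esh9-1. The share of all genes with that pattern was not counted, so these calls are a description. By brightest probe sets CASD1 and PPP1R9A were the only 2 of the 20 neighbours with that pattern. PON2, a paraoxonase, had it on its other probe set, 210830_s_at, with 0.26 ± 0.08 in ERC4 (limma adjusted p = 0.021) and -0.67 ± 0.08 in Esh9-1 (limma adjusted p = 7.4e-05), while its brightest probe set was called in ERC4 only. CASD1, the sialic acid O-acetyltransferase, lies beside SGCE. Its log2 levels were 5.09, 5.14 and 5.20 in ERC4, against 4.52, 4.42 and 4.39 in HCC827 parental, a difference of 0.70 ± 0.08 (SE, limma adjusted p = 7.8e-05). Both ERC4 and HCC827 parental levels were under the array medians. In Esh9-1 CASD1 read 7.59, 7.56 and 7.47, against 8.33, 8.09 and 8.37 in HCC827NT, a difference of -0.72 ± 0.08 (limma adjusted p = 7.9e-05), and the groups did not overlap in either comparison. PPP1R9A, which encodes neurabin-1, an actin-binding partner of protein phosphatase 1, lies beside PEG10. It is also in the list of other imprinted genes taken up below. Its log2 levels were 6.40, 6.35 and 6.58 in ERC4, against 5.34, 5.95 and 5.76 in HCC827 parental, a difference of 0.77 ± 0.14 (limma adjusted p = 0.0018). In Esh9-1 PPP1R9A read 7.58, 7.57 and 7.42, against 7.62, 7.98 and 7.99 in HCC827NT, a difference of -0.34 ± 0.11 (limma adjusted p = 0.025) with no overlap. That last call was lost in 1 model for all 12 arrays (limma adjusted p = 0.058) and without Esh9-1 replicate 3 (0.078), HCC827NT replicate 2 (0.088) or HCC827NT replicate 3 (0.092). CASD1, SGCE, PEG10 and PPP1R9A were thus 4 adjacent genes with one pattern of direction, of which PEG10 changed by far the most. The signs did not stop there on the CASD1 side. BET1 (0.35 in ERC4 and -0.21 in Esh9-1, called in Esh9-1 only) had the same signs. So did COL1A2, between BET1 and CASD1, at 0.01 ± 0.09 (SE) in ERC4 and -0.11 ± 0.07 in Esh9-1. It was called in neither, and its ERC4 difference was well within its error.

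Promoter sequences for these 2 neighbours, from RefSeq (GRCh38.p14, both on the plus strand, 250 bases before to 50 after the gene start), are shown because these genes moved with PEG10 and SGCE. Of the 7 imprinted genes, MEST, PLAGL1 and GRB10 had promoter entries in the same set of sequences. PEG10, SGCE, PEG3 and NNAT had none there, so the promoters of PEG10 and SGCE are not shown. Capitals mark GGGCGG, the core of the GC box, searched on both strands (CCGCCC on the other), which 45.0% of 35116 promoters of this length hold. The CASD1 promoter (chr7:94509559-94509858) holds 26 CpG dinucleotides and the PPP1R9A promoter (chr7:94907344-94907643) holds 15, against a median of 14 over all promoters. Each holds 1 match to GGGCGG and none to the E-box CACGTG or the AP-1 motif TGANTCA, which 7.26% and 7.71% of promoters hold.
CASD1: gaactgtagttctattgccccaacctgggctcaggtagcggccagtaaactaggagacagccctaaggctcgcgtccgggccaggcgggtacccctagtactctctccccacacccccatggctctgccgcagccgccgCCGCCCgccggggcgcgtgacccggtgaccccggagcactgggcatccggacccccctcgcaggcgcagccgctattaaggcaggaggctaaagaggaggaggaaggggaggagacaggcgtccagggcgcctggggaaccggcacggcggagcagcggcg
PPP1R9A: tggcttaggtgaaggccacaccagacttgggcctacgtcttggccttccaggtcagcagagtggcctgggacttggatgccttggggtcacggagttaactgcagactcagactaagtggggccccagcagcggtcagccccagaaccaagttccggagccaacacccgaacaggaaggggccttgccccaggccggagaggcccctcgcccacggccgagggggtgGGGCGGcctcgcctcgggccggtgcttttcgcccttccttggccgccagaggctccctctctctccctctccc

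The other neighbours gave mixed directions. TFPI2, a secreted serine protease inhibitor and itself imprinted in placenta, lies on the CASD1 side and fell in both comparisons. Its log2 levels were 5.32, 5.21 and 5.44 in ERC4, against 7.60, 7.51 and 7.62 in HCC827 parental, a difference of -2.25 ± 0.09 (SE, limma adjusted p = 1.2e-07). In Esh9-1 TFPI2 read 7.54, 7.63 and 7.58, against 8.16, 8.25 and 8.28 in HCC827NT, a difference of -0.65 ± 0.06 (limma adjusted p = 2.6e-05). SLC25A13, a mitochondrial aspartate-glutamate carrier, rose in both, by 0.68 ± 0.10 in ERC4 (limma adjusted p = 0.00045) and by 0.30 ± 0.07 in Esh9-1 (limma adjusted p = 0.0043). PON3, a paraoxonase, fell in Esh9-1 by 1.09 on the log2 scale, at 5.76, 5.59 and 6.07 in Esh9-1, against 6.72, 6.93 and 7.04 in HCC827NT (limma adjusted p = 8.5e-05), and was not called in ERC4.

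Further calls in the interval were smaller. PON2 and SDHAF3, an assembly factor of succinate dehydrogenase, rose in ERC4 by 0.40 and 0.45 on the log2 scale (limma adjusted p = 0.0028 and 0.010). DLX6, a homeobox gene, and DYNC1I1, a dynein intermediate chain, fell there by 0.43 and 0.33 (limma adjusted p = 0.0021 and 0.043). In Esh9-1 PON1 (also a paraoxonase), ASB4 (an imprinted gene with a SOCS box), BET1 (a Golgi SNARE) and TAC1 (the substance P precursor) fell by 0.40, 0.27, 0.21 and 0.18 on the log2 scale (limma adjusted p = 0.021, 0.019, 0.017 and 0.026). The DYNC1I1 call in ERC4 and the TAC1 call in Esh9-1 were lost in several settings, at adjusted p of up to 0.18 and 0.13, and the PON1, ASB4 and BET1 calls were also lost in some settings. PON1 was not called without HCC827NT replicate 1 (0.068) or 2 (0.074), and ASB4 not without Esh9-1 replicate 2 (0.061), HCC827NT replicate 1 (0.058) or HCC827NT replicate 2 (0.071). BET1 was not called in 1 model for all 12 arrays (0.15) or without HCC827NT replicate 3 (0.052). In the comparison where they were not called, the log2 differences were 0.35 for BET1 in ERC4 and, in Esh9-1, -0.12 for PON2 and -0.09 for SDHAF3, the signs of PEG10. CALCR, GNGT1, GNG11, COL1A2, PDK4, SEM1 and DLX5 were called in neither comparison. The number of neighbours called lower in Esh9-1 was 4 without HCC827NT replicate 2 and 5 without HCC827NT replicate 3, in place of 8.

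**Figure D3:**
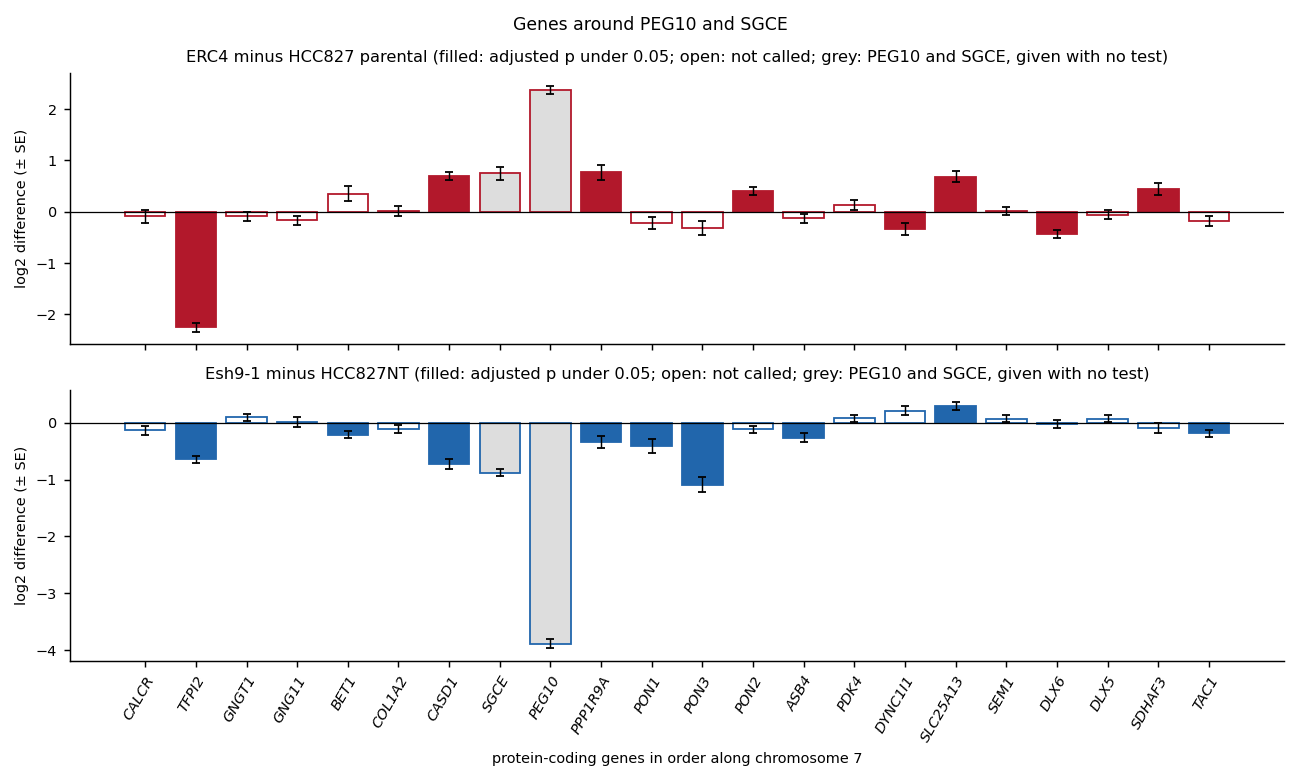
Log2 differences (bars, ± SE) of the 22 protein-coding genes from CALCR to TAC1 in their order on chromosome 7, ERC4 minus HCC827 parental above and Esh9-1 minus HCC827NT below; filled bars were called at an adjusted p under 0.05, open bars were not, and grey bars are PEG10 and SGCE, given with no test. The 4 adjacent genes CASD1, SGCE, PEG10 and PPP1R9A lie above 0 in the upper panel and below 0 in the lower one. BET1 has the same signs with smaller differences, COL1A2 lies close to 0 in the upper panel, well within its SE, and TFPI2 lies below 0 in both panels.

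The genes around the other 5 imprinted genes gave mixed calls. Near MEST, 5 of 10 listed neighbours were measured, and PODXL, which encodes podocalyxin, rose by 0.56 ± 0.10 in ERC4 (limma adjusted p = 0.0011) and by 1.59 ± 0.09 in Esh9-1 (limma adjusted p = 1.0e-06), whereas MEST itself was lower in Esh9-1. MKLN1, the muskelin gene, rose by 0.34 in ERC4 and by 0.30 in Esh9-1 on the log2 scale (limma adjusted p = 0.0038 and 0.0032). CPA1, a carboxypeptidase, fell by 0.30 in ERC4 (limma adjusted p = 0.040), a call lost in several settings, such as quantile normalization within the set (0.15). Near GRB10, 6 of 11 were measured, and 4 of them were called in each comparison, EGFR, the shRNA target, among those lower in Esh9-1. That was 66.7% of the 6 in each comparison, against 50.9% of all genes in ERC4 and 52.3% in Esh9-1. COBL, an actin nucleator, and UPP1, a uridine phosphorylase, rose in ERC4 by 0.35 and 0.61 (limma adjusted p = 0.024 and 0.00019), the COBL call being lost without ERC4 replicate 1 (0.091), ERC4 replicate 3 (0.068) or HCC827 parental replicate 1 (0.071). Both fell in Esh9-1 by 2.07 and 1.23 on the log2 scale (limma adjusted p = 1.7e-08 and 6.5e-07). DDC, which encodes aromatic amino acid decarboxylase and lies next to GRB10, rose by 0.52 in ERC4 (limma adjusted p = 0.00072) and by 0.35 in Esh9-1 (limma adjusted p = 0.0037). IKZF1, a lymphoid transcription factor, fell by 0.31 in ERC4 (limma adjusted p = 0.029), a call lost with arrays centred on their median (0.060) and without ERC4 replicate 2 (0.10), ERC4 replicate 3 (0.099), HCC827 parental replicate 1 (0.078) or HCC827 parental replicate 2 (0.078).

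Near PLAGL1, 6 of 10 were measured. PEX3, a peroxisome biogenesis gene, rose by 0.88 ± 0.10 in ERC4 (limma adjusted p = 6.7e-05) and fell by 0.69 on the log2 scale in Esh9-1 (limma adjusted p = 1.7e-05) on its brightest probe set, the directions of PEG10, although 1 of its 3 probe sets was called lower in ERC4. PHACTR2, a phosphatase and actin regulator, fell by 1.27 in ERC4 (limma adjusted p = 0.00020). UTRN, the utrophin gene, rose by 0.52 in ERC4 (limma adjusted p = 0.00038) and fell by 0.35 in Esh9-1 (limma adjusted p = 0.018), a call lost without Esh9-1 replicate 1 (0.054) or HCC827NT replicate 1 (0.065). Near NNAT, 9 of 12 were measured; TGM2, a transglutaminase, fell by 0.86 in ERC4 (limma adjusted p = 6.2e-05) and rose by 2.14 in Esh9-1 (limma adjusted p = 1.5e-06). TTI1, a partner of the PI3K-related kinases, rose by 0.72 and 0.39 in ERC4 and Esh9-1 (limma adjusted p = 0.0064 and 0.0018), and RBL1, the p107 pocket protein, by 0.30 and 0.58 (limma adjusted p = 0.0098 and 0.0028). GHRH and RPN2 in ERC4 and SRC in Esh9-1 fell by 0.31, 0.19 and 0.22, calls each lost in at least 3 settings. Near PEG3, 8 of 15 were measured; ZSCAN5A, a zinc finger gene, fell by 1.05 in Esh9-1 on the log2 scale (limma adjusted p = 1.0e-06), and the zinc finger genes ZNF667 and ZNF304 rose there by 0.35 and 0.28 (limma adjusted p = 0.0047 and 0.0038), ZNF304 not being called in 1 model for all 12 arrays (0.13). AURKC, ZNF460 and ZNF264 fell in ERC4 by 0.37, 0.32 and 0.31, of which 1 was still called without ERC4 replicate 1 or without ERC4 replicate 2.

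Other imprinted genes were taken from a list of 50, of which 36 were measured under a single symbol. In ERC4, 7 were called higher, 10 lower and 19 not, with a median log2 difference of -0.11, against -0.04 over all genes. In Esh9-1, 5 were called higher, 6 lower and 25 not, with a median of -0.01, against -0.02 over all genes. Of the 36, 47.2% were thus called in ERC4 and 30.6% in Esh9-1, against 50.9% and 52.3% of all genes, and 21 of the 36 were under the array medians in both groups of each comparison.

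Among the imprinted genes higher in ERC4 were RB1, the retinoblastoma tumour suppressor, at 5.71, 5.65 and 5.68 (log2) in ERC4, against 4.35, 4.73 and 4.46 in HCC827 parental, a difference of 1.16 ± 0.10 (SE, limma adjusted p = 1.8e-05) with both group means under the array medians. ATP10A, a phospholipid flippase, rose by 0.66 ± 0.10 (limma adjusted p = 0.00065). UBE3A, the ubiquitin ligase of Angelman syndrome, rose by 0.58 ± 0.10 on its brightest probe set (limma adjusted p = 0.0014), and 1 of its 6 probe sets was called in the other direction. The largest falls after TFPI2 were in PHLDA2, a growth-restraining gene of the placenta. PHLDA2 read 5.45, 5.73 and 5.77 in ERC4, against 6.88, 7.29 and 7.16 in HCC827 parental, a difference of -1.46 ± 0.12 (limma adjusted p = 1.4e-05). L3MBTL1, a chromatin reader, fell by 1.08 (limma adjusted p = 0.00026), and MEG3, a long noncoding RNA, by 0.87 on the log2 scale (limma adjusted p = 0.00025).

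In Esh9-1, GNAS, which encodes the stimulatory G protein alpha subunit, read 13.45, 13.45 and 13.50 (log2) in Esh9-1, against 12.80, 12.71 and 12.75 in HCC827NT. It rose by 0.71 ± 0.06 (SE, limma adjusted p = 9.7e-06), although 1 of its 9 probe sets was called in the other direction. INPP5F, an inositol phosphatase, rose by 0.73 ± 0.12 (limma adjusted p = 0.00085). RB1 rose by 0.98 ± 0.10 on its brighter probe set (limma adjusted p = 3.1e-05), while its other probe set was called lower. ZNF331, a zinc finger gene, fell by 0.59 on the log2 scale (limma adjusted p = 9.0e-05) and rose by 0.40 in ERC4 (limma adjusted p = 0.0074). MEG3 fell by 0.28 (limma adjusted p = 0.025), a call lost without Esh9-1 replicate 2 (0.082), HCC827NT replicate 1 (0.057) or HCC827NT replicate 3 (0.091). Without HCC827NT replicate 3, 2 imprinted genes were called lower in Esh9-1 in place of 6. Called in both comparisons were 9 of the 36 genes, of which 3 were higher in both, 3 lower in both and 3 higher in ERC4 and lower in Esh9-1. The last 3 include PPP1R9A, and those lower in both include TFPI2, each already given above as a neighbour of PEG10. The share of all genes called in both comparisons was not counted, so these counts are given without any reading.

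**Figure D4:**
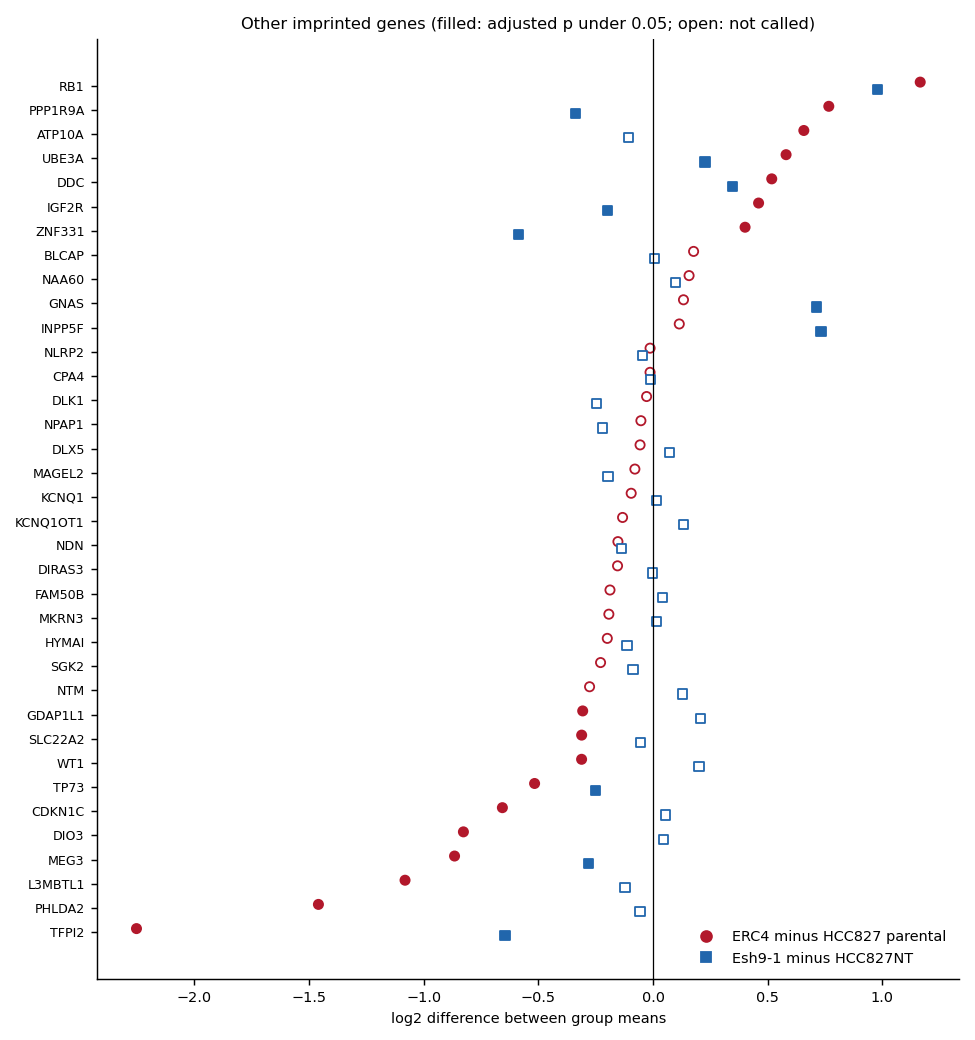
Log2 differences between group means of 36 other imprinted genes, each by its brightest probe set, ordered by ERC4 minus HCC827 parental (circles), with Esh9-1 minus HCC827NT as squares; filled symbols were called at an adjusted p under 0.05. The genes spread to both sides of 0, reaching -2.25 (TFPI2) and 1.16 (RB1) in ERC4, and none reaches the -3.89 of PEG10 in Esh9-1.

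Genes that, like PEG10, derive from retrotransposon gag sequences were compared as a family. Of 19 listed, 7 were measured: in ERC4, 4 were called higher, 2 lower and 1 not, with a median log2 difference of 0.31, and in Esh9-1, 2 were called higher, 3 lower and 2 not, with a median of 0.04. The share called was 85.7% in ERC4 and 71.4% in Esh9-1, against 50.9% and 52.3% of all genes, whose medians were -0.04 and -0.02. RTL8A, an X-linked gag-derived gene, had the direction of PEG10 in both comparisons. It read 8.51, 8.57 and 8.50 (log2) in ERC4, against 8.09, 8.28 and 8.29 in HCC827 parental, a difference of 0.31 ± 0.08 (SE, limma adjusted p = 0.013), which was 0.09 with quantile normalization within the set (limma adjusted p = 0.41). In Esh9-1 RTL8A read 9.09, 9.24 and 9.26, against 10.40, 10.30 and 10.31 in HCC827NT, a difference of -1.14 ± 0.07 (limma adjusted p = 1.3e-06). LDOC1, another X-linked member, fell in both, by 0.32 on the log2 scale in ERC4 (limma adjusted p = 0.0055). In Esh9-1 LDOC1 read 10.11, 10.05 and 10.09, against 11.04, 11.11 and 11.12 in HCC827NT (limma adjusted p = 1.1e-06). RTL8C fell in Esh9-1 by 0.51 (limma adjusted p = 0.00022). PNMA8A rose in both, by 0.58 ± 0.11 in ERC4 (limma adjusted p = 0.0019), and went opposite to PEG10 in Esh9-1, at 9.30, 9.26 and 9.33 in Esh9-1, against 6.41, 6.51 and 6.52 in HCC827NT, a difference of 2.82 ± 0.06 (limma adjusted p = 2.8e-09). MOAP1, a modulator of apoptosis, rose by 0.63 in ERC4 and by 0.48 in Esh9-1 (limma adjusted p = 0.00071 and 0.0012). PNMA1 rose by 0.54 and PNMA3 fell by 0.45 in ERC4 (limma adjusted p = 0.00029 and 0.0061).

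Partners of SGCE in the sarcoglycan and dystrophin complex gave calls in both directions. Of 15 listed genes 9 were measured, of which 2 were called higher, 1 lower and 6 not in ERC4, and 4 higher, 2 lower and 3 not in Esh9-1. The share called was 33.3% in ERC4 and 66.7% in Esh9-1, against 50.9% and 52.3% of all genes. UTRN, given above near PLAGL1, was the 1 gene of the list called in the directions of SGCE in both comparisons, at 0.52 in ERC4 and -0.35 in Esh9-1. SGCB, which encodes beta-sarcoglycan, rose in both. It read 7.78, 7.76 and 7.70 (log2) in ERC4, against 6.98, 7.16 and 7.19 in HCC827 parental, a difference of 0.64 ± 0.08 (SE, limma adjusted p = 0.00021). In Esh9-1 SGCB read 9.64, 9.55 and 9.49, against 7.98, 8.14 and 7.98 in HCC827NT, a difference of 1.53 ± 0.07 (limma adjusted p = 2.6e-07), opposite to SGCE. SSPN, the sarcospan gene, rose by 0.58 in Esh9-1 (limma adjusted p = 6.4e-05), and SNTB2, a syntrophin with 1 of its 4 probe sets called lower, by 0.35 (limma adjusted p = 0.0026). DTNB in ERC4 fell by 0.24, and in Esh9-1 POMT1 rose by 0.23 and DTNA fell by 0.23, calls each lost in at least 3 settings.

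The genes most like PEG10 were found by correlating log2 levels over the 12 arrays after each set was centred on its own mean. Each gene was ranked by its probe set with the highest correlation, not by its brightest. As each set holds 2 groups that differ widely, such a correlation mainly follows the group differences, and it is a description. The 5 most like PEG10 (212092_at) were EIF1 and MTUS1 (r of 0.996 each), ENDOD1 (0.996), GPNMB (0.995) and LAPTM4B (0.995). SGCE ranked 246 of 11962 genes with r of 0.953, and CASD1 ranked 252 with the same rounded r. MEST ranked 1266 (r of 0.813) and PPP1R9A 1947 (r of 0.702). The 5 most like SGCE were SRD5A1 and BCL2L1 (r of 0.986 each), NAV2, FOXRED2 and SPRED2 (r of 0.983 each). PEG10 ranked 32 for SGCE with r of 0.966 by 212094_at, the better correlated of its 2 probe sets. Its other probe set, 212092_at, had r of 0.953 with SGCE. In this ranking neither PEG10 nor SGCE was the other's nearest. Both were chosen by the group differences that such a correlation follows, so these ranks add nothing to their shared direction given above.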

How the data were processed

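Total RNA was hybridised to 12 one-colour arrays. The files hold linear intensities for 22277 probe sets, made by the authors with RMA, per the submitters' processing notes; which arrays were normalized together is not given in the sources used here. The 62 control probe sets were left out of the tests, and log2(intensity + 1) was taken, which understates changes of dim genes. Each comparison was fitted on its own 6 arrays with limma 3.58.1 (lmFit, eBayes) in R 4.3.3, two-sided, with Benjamini-Hochberg adjustment over 22215 probe sets and calls at an adjusted p under 0.05. Of all probe sets, 19070 have 1 gene symbol, 1043 several and 2164 none. The brightest probe set over all arrays stood for a gene outside the 7, except in the ranking of likeness to PEG10 and SGCE. There each gene stood by its probe set with the highest correlation. With 3 arrays in each group, their number limits precision. The procedure was tested on simulated data. The members and lists were chosen with earlier results of these data known. Every member probe set and every neighbour of PEG10 and SGCE was to be named, up to 4 called genes per list and direction by size of change, and the 5 genes most like PEG10 and SGCE. The platform annotation named the probe sets; gene order along chromosomes was read from RefSeq (GRCh38.p14). Alternatives are in the closing section. Figures were drawn with matplotlib 3.10.9.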

Additional observations from a re-analysis of the deposited data

How the results depend on the processing

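Across the 16 alternatives run per comparison the log2 difference ran from 2.19 to 2.43 (ERC4) and from -3.97 to -3.81 (Esh9-1) for PEG10 212092_at, and from 0.59 to 0.88 and from -0.91 to -0.82 for SGCE. The number of probe sets called lower in ERC4, 5522, was 3016 with dim probe sets left out and 3277 at a threshold of 0.01. The share of ERC4 calls that were higher, 48.7%, was 58.9% with arrays centred on their median and 61.2% with dim probe sets left out. Small differences changed sign. In ERC4, GRB10 215248_at was 0.021 with arrays centred on their median and 0.081 with quantile normalization, and -0.11 to 0.0043 leaving out 1 array, above 0 without ERC4 replicate 2 or HCC827 parental replicate 3; MEST was 0.029 with arrays centred on their median; and PEG3 209242_at was 0.0081 with quantile normalization. In Esh9-1, PEG3 209243_s_at was -0.12 to 0.034 leaving out 1 array, above 0 without Esh9-1 replicate 2. PLAGL1 207943_x_at was 0.0073 with quantile normalization and -0.056 to 0.024 leaving out 1 array, above 0 without Esh9-1 replicate 1 or HCC827NT replicate 2. The cause was not tested. With quantile normalization MEST was lower in ERC4 (log2 difference -0.24). Member probe sets called in ERC4, 10, were 6 at a threshold of 0.01, without ERC4 replicate 2 and without ERC4 replicate 3. In Esh9-1 the neighbours of PEG10 and SGCE called lower, 8, were 5 in 1 model for all 12 arrays, 4 with dim probe sets left out and 3 at 0.01. The other imprinted genes called lower were 5 in ERC4 with dim probe sets left out, in place of 10, and 2 in Esh9-1 at 0.01, in place of 6. Same-numbered arrays showed little or no shared deviation (correlations of 0.01 to 0.07 in ERC4 against HCC827 parental and of -0.14 to -0.03 in Esh9-1 against HCC827NT). With 3 arrays per group these correlations cannot show whether the numbers pair the samples. With the replicate number as a block, 10639 probe sets were called in ERC4 in place of 10774 and 10454 in Esh9-1 in place of 11184, with 8 and 5 member probe sets called in place of 10 and 7.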
